A study of Mus musculus with 14 samples.

Results

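The genes described here are 9 genes of the intestinal epithelium: the homeobox factors Cdx1 and Cdx2, and Vil1, Cdhr5, Cdh17, Lgals4, Mep1b, Lct and Slc5a1, genes known for their products at the surface of absorptive cells, most of them in the brush border. They were followed in mouse hepatoblasts, fetal liver cells from which both hepatocytes and bile duct cells form, on 14 arrays that represent 12393 genes. Every gene was matched by symbol, and its probe set was selected on the highest mean over the 14 arrays. The 9 genes themselves were chosen by name with earlier differences between these groups known, so their levels are a description, and no test below is independent evidence for them. They lie on chromosome 1 (Vil1, chr1:74409384-74435560, and Lct, chr1:128284756-128328318), chromosome 4 (Cdh17, chr4:11758157-11817905), chromosome 5 (Slc5a1, chr5:33104219-33162699, and Cdx2, chr5:147300900-147307249), chromosome 7 (Lgals4, chr7:28833122-28841710, and Cdhr5, chr7:141269080-141276795) and chromosome 18 (Mep1b, chr18:21072344-21100199, and Cdx1, chr18:61018862-61036199) of GRCm38.p6.

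Each of 7 groups had 2 cultures. On uncoated plates there were cells with the IDH1 mutant R132C and cells with an empty vector. On collagen-coated plates there were cells with the IDH2 mutant R172K, wild-type IDH2, R132C, wild-type IDH1 and the empty vector. All cells were hepatoblasts of wild-type mouse embryos at day 14, immortalised by plating at clonal density, and all carried a doxycycline-inducible system, per the labels and the series text. The labels name 25 ng/mL of doxycycline for IDH1 work. Whether vector and IDH2 cells received it is not given in the sources used here, so its part in differences from vector cells was not tested. Uncoated plates, the setting named for hepatocyte differentiation, were used for up to 5 days. The promoter behind the transgenes and the number of clones behind each line are not given in the sources used here.

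Cdx2 and Cdx1 are homeodomain transcription factors that give the embryonic gut its posterior identity and keep intestinal genes on in the adult gut. They are known to bind control regions of enterocyte genes together with HNF4A, HNF1 and GATA factors, which the liver shares with the gut. The brush border is the carpet of microvilli on enterocytes: actin bundles tied by villin, tips joined by protocadherins, and a membrane that holds digestive hydrolases and sugar transporters. Adult hepatocytes normally make little or no CDX2.

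The upstream sequences of 3 genes are shown because their transcripts rose in vector cells on uncoated plates, while in R132C cells only that of Vil1 passed the test there. Each is the 250 bases before the transcript start from RefSeq, GRCm38.p6, read 5′ to 3′ on the gene's strand. Of the 9 genes 6 matched an entry. Capitals mark a match, on either strand, to any of the motifs TTTATNG for CDX factors, CAAAGTC for HNF4A, GTTAAT for HNF1 and AGATAAG for GATA factors.
Cdx2, minus strand, chr5:147307250-147307499: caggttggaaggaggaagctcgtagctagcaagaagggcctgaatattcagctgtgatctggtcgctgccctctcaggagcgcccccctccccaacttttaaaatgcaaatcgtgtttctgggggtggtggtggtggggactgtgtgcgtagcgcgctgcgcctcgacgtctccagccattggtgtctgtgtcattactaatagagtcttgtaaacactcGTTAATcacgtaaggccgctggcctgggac
Vil1, plus strand, chr1:74409134-74409383: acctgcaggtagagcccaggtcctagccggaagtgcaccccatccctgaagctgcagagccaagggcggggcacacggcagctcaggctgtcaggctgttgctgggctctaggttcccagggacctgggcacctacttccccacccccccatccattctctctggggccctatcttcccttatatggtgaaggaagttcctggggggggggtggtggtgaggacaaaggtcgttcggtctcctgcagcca
Cdhr5, minus strand, chr7:141276787-141277036: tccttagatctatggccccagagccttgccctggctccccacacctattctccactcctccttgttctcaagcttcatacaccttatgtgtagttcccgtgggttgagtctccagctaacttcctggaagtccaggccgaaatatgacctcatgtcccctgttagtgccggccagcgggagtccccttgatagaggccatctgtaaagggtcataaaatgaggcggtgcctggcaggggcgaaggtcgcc

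The only match among the 6 windows, which also covered Lgals4, Lct and Slc5a1, was 1 HNF1 motif in Cdx2, beginning 30 bases before the start. Over 32851 promoter windows of the same length, 6.43% held the HNF1 motif, 9.81% the CDX motif, 3.84% the HNF4A motif and 2.74% the GATA motif. These letters are thus not in the other windows, which says nothing about binding by the factors, there or at distant sites.

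The deposited values are probe set intensities on a linear scale, and log2 of them is used throughout. The lower quartile of all probe sets lay at log2 4.72 to 4.80 on the 14 arrays, and a level at or under it on an array is called near background. Array medians were 134.5 intensity units in R172K replicate 1 and 144.4 to 147.7 in the other 13, and the pairs of a group had correlations across genes of 0.994 in R172K and 0.996 to 0.998 elsewhere. Of 8 liver epithelium markers 7 were above the quartile on all arrays, Hnf4a at log2 10.85 to 11.74, Afp at 9.09 to 11.63 and Krt8 at 14.15 to 14.35 among them. Alb, the plasma protein of mature hepatocytes, was above it on 4 arrays. Of 11 measured genes of retina, muscle and neurons, 10 lay between log2 2.92 and 5.90 and Mbp between 9.74 and 10.32, so a level somewhat above the quartile does not by itself show expression.

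Of the 9 genes 5 were above the lower quartile on all 14 arrays: Cdx2, Vil1, Cdhr5, Cdh17 and Lgals4. The other 4, Cdx1, Mep1b, Lct and Slc5a1, were at or under it on every array. One of the CDX factors, the actin bundler, both cadherin-type adhesion genes and the lectin thus gave a signal, while the digestive enzymes and the glucose transporter gave none above background on any plate. In bulk RNA, fewer expressing cells and less RNA per cell cannot be told apart.

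**Figure D1:**
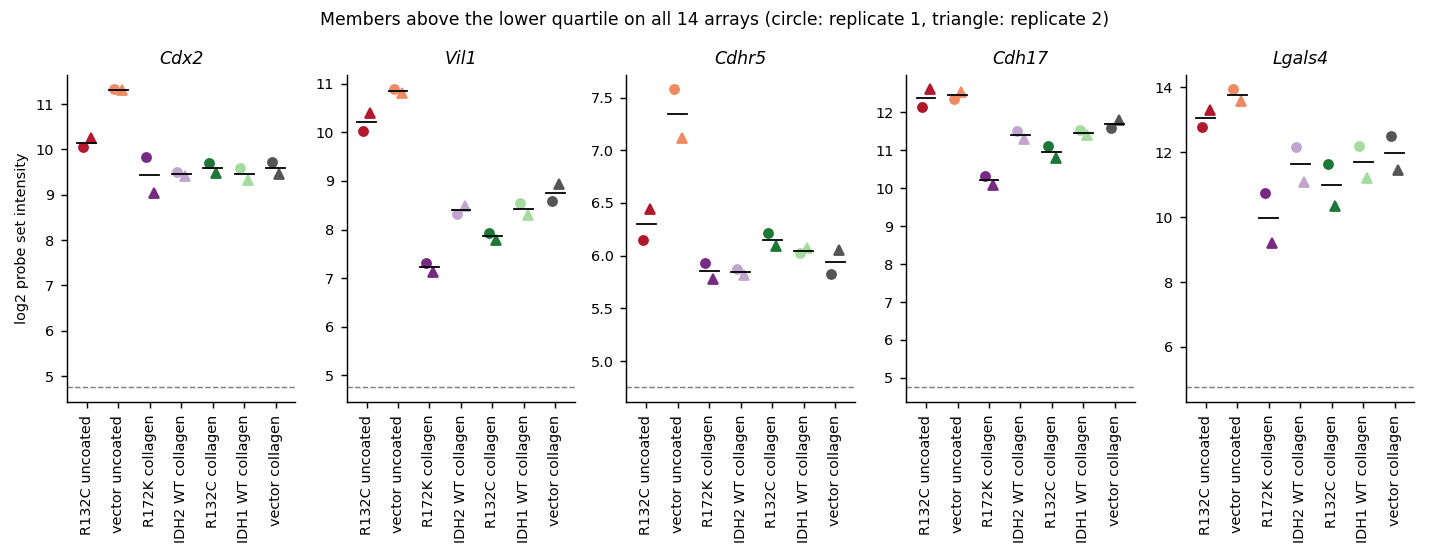
Log2 probe set intensity (y axis) of the 5 genes above background on each of the 14 arrays, by group (x axis). Circles are replicate 1, triangles replicate 2, black lines group means, and the dashed line is the mean lower quartile of the arrays. Uncoated plates stand highest for every gene except Cdhr5, where R132C cells on uncoated plates overlap R132C cells on collagen, and R172K cells stand lowest for Vil1, Cdh17 and Lgals4, with arrays overlapping those of R132C cells only for Lgals4.

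Among the factors, Cdx2 was on log2 scale at 11.32 and 11.32 in vector cells on uncoated plates, against 9.71 and 9.47 in vector cells on collagen. In R132C cells it was at 10.04 and 10.26 on uncoated plates, against 9.70 and 9.48 on collagen. On collagen the remaining cultures lay at 9.84 and 9.03 with R172K, 9.50 and 9.42 with wild-type IDH2, and 9.60 and 9.33 with wild-type IDH1. Vector cells on uncoated plates stood above all other arrays, R132C cells on uncoated plates came next without overlap, and the 5 collagen groups overlapped one another. The R172K cultures, 0.81 apart, spread most.

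A second Cdx2 probe set had the same first and second place. It read 8.51 and 8.67 in vector cells on uncoated plates, against 7.07 and 6.75 in vector cells on collagen, and 7.49 and 7.77 in R132C cells on uncoated plates, against 6.99 and 7.11 in R132C cells on collagen. Its R172K cultures were close, at 6.69 and 6.64, and lowest of all arrays.

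Cdx1, the paralog of Cdx2 that is known to be expressed in intestinal crypts, ran from log2 3.70 to 4.56. Its highest array was R172K replicate 1, at 4.56, with replicate 2 at 3.94. All other arrays lay between 3.70 and 4.26, and neighbouring groups in its order overlapped except R132C over wild-type IDH1 on collagen. Cdx4, the remaining family member, was near background on every array as well, from 3.08 to 3.58.

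Villin, the product of Vil1, bundles the actin core of microvilli and is also made by bile duct cells. Its transcript was at log2 10.88 and 10.80 in vector cells on uncoated plates, against 8.59 and 8.93 in vector cells on collagen. In R132C cells it was at 10.04 and 10.41 on uncoated plates, against 7.92 and 7.79 on collagen. On collagen, R172K cells had 7.31 and 7.13 and wild-type IDH2 cells 8.32 and 8.48, with wild-type IDH1 cells at 8.56 and 8.30. From the top the order was vector uncoated, R132C uncoated, vector, wild-type IDH1, wild-type IDH2, R132C and R172K, and the wild-type IDH1 and IDH2 groups were the only neighbours whose arrays overlapped.

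Cdhr5 is a protocadherin that links the tips of neighbouring microvilli. It was at log2 7.58 and 7.12 in vector cells on uncoated plates, against 5.82 and 6.05 in vector cells on collagen, and at 6.15 and 6.45 in R132C cells on uncoated plates, against 6.22 and 6.09 in R132C cells on collagen. On collagen R172K cells had 5.93 and 5.78, wild-type IDH2 cells 5.88 and 5.81, and wild-type IDH1 cells 6.02 and 6.07. Only the vector cells on uncoated plates stood apart from all other groups. Its collagen levels reached down into the range of the muscle gene Ckm (5.36 to 5.83) and the glial gene Gfap (5.46 to 5.90), so its folds start close to background and are not exact.

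Cdh17, the liver-intestine cadherin, joins epithelial cells on their lateral sides. Uncoated plates gave log2 12.36 and 12.55 in vector cells, against 11.60 and 11.79 on collagen. They gave 12.13 and 12.61 in R132C cells, against 11.10 and 10.79 on collagen. R172K cells had 10.33 and 10.09, wild-type IDH2 cells 11.50 and 11.29, and wild-type IDH1 cells 11.52 and 11.41. Both uncoated groups overlapped at the top, followed by vector cells on collagen, then the overlapping wild types, then R132C and at the bottom R172K, each without overlap.

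Galectin-4, encoded by Lgals4, is a lectin that holds glycolipid rafts of the enterocyte's apical membrane together. Its signal was the most spread. It stood at log2 13.94 and 13.58 in vector cells on uncoated plates, against 12.50 and 11.45 in vector cells on collagen, and at 12.79 and 13.32 in R132C cells on uncoated plates, against 11.65 and 10.35 in R132C cells on collagen. R172K cells had 10.75 and 9.22, wild-type IDH2 cells 12.16 and 11.10, and wild-type IDH1 cells 12.21 and 11.22. In all 5 collagen groups replicate 1 exceeded replicate 2, by 0.98 to 1.53 on the log2 scale, while on uncoated plates the gap was 0.36 in vector cells and -0.53 in R132C cells. The labels give the numbers no further meaning. Neighbouring collagen groups in its order overlapped, and within either number R172K was lowest and R132C next.

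**Figure D2:**
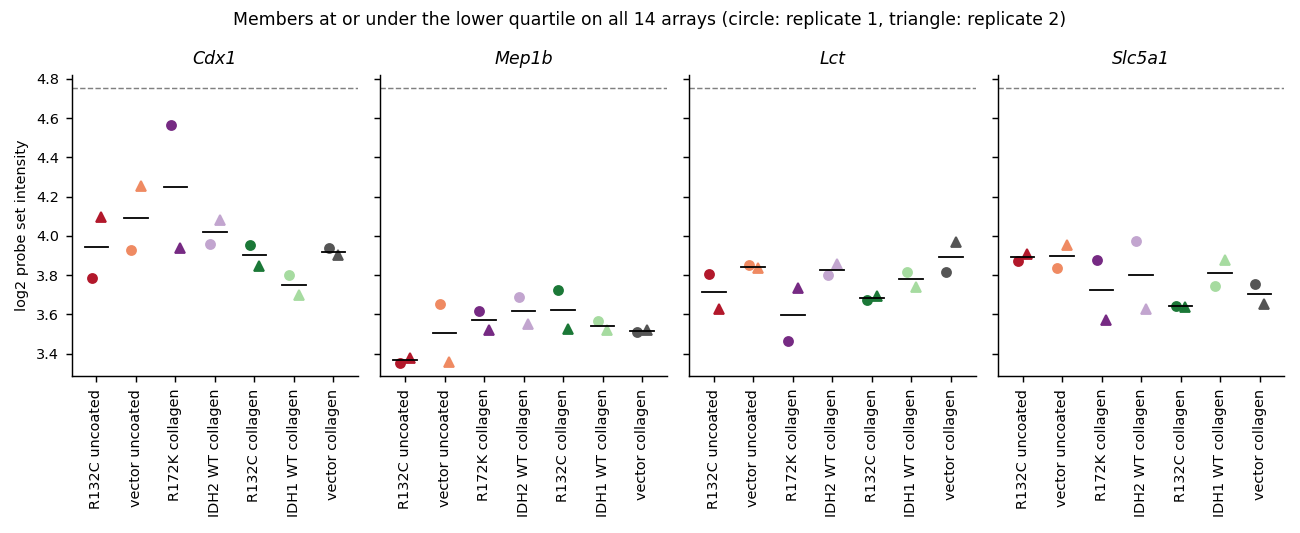
Log2 probe set intensity (y axis) of Cdx1, Mep1b, Lct and Slc5a1 on each of the 14 arrays, by group (x axis). Circles are replicate 1, triangles replicate 2, black lines group means, and the dashed line is the mean lower quartile of the arrays. Every array of the 4 genes lies under the line, and the highest point is Cdx1 in R172K replicate 1 at 4.56.

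The hydrolases and the transporter varied little among arrays. Mep1b, the beta subunit of the metalloprotease meprin, ran from log2 3.36 to 3.72 over the 14 arrays with a median of 3.52. Lct, the lactase of the brush border, ran from 3.47 to 3.97 with a median of 3.80. Slc5a1, the sodium-glucose cotransporter of the small intestine and kidney, ran from 3.57 to 3.97 with a median of 3.80. A second Slc5a1 probe set was near background too, and its order of groups differed. Differences among these 3 genes are between levels near background and are not read further.

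The first comparison asked what keeping control cells on uncoated plates instead of collagen did to these genes. By limma, in a fit to all 12393 genes with Benjamini-Hochberg adjustment, 5 of the 9 rose and none fell, where 15.1% of all genes rose, 14.2% fell and 29.3% passed in either direction. Cdx2 rose 3.32-fold, by log2 1.73 (SE 0.20, adjusted p = 4.67e-05, limma). Vil1 rose 4.23-fold, by log2 2.08 (SE 0.15, adjusted p = 1.47e-06, limma). Cdhr5 rose 2.65-fold, by log2 1.41 (SE 0.16, adjusted p = 3.85e-05, limma). A factor, an actin bundler and a microvillar protocadherin thus rose together. Cdh17 rose 1.70-fold, by log2 0.76 (SE 0.16, adjusted p = 0.00237, limma). Lgals4 rose 3.44-fold, by log2 1.78 with an SE of 0.55 (adjusted p = 0.0275, limma). For these 5 genes both uncoated arrays stood above both collagen arrays. The same held for Slc5a1, which is near background and was not called (adjusted p = 0.332, limma). How many of all genes were separated in this way was not counted. The Lgals4 call was lost without vector collagen replicate 2 (adjusted p = 0.193), without vector uncoated replicate 1 (adjusted p = 0.151) and without vector uncoated replicate 2 (adjusted p = 0.0677), all by limma, while over all 22 alternatives its adjusted p ran from 0.00126 to 0.193.

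The same change of plate was then measured in R132C cells. Vil1 rose 5.14-fold, by log2 2.36 (SE 0.15, adjusted p = 3.85e-06, limma). Cdh17 rose 2.68-fold, by log2 1.42 (SE 0.16, adjusted p = 7.05e-05, limma), and Lgals4 rose 4.15-fold, by log2 2.05 (SE 0.55, adjusted p = 0.0153, limma). These 3 of the 9 passed and none fell, where 13.6% of all genes rose, 12.3% fell and 25.9% passed in either direction. Cdx2 was higher by log2 0.56 (SE 0.20) in both arrays but missed the threshold (adjusted p = 0.0605, limma). Its second probe set gave 0.58 (SE 0.15, adjusted p = 0.0157 over all probe sets, limma). The shared spread of the first takes in the R172K pair, and without R172K replicate 1 or replicate 2 its adjusted p was 0.00584 or 0.00575 by limma. Over 22 alternatives that adjusted p ran from 0.00575 to 0.291 and passed in 5. Cdhr5 differed by log2 0.15 with a 95% interval of -0.20 to 0.49 (adjusted p = 0.578, limma). The Lgals4 call was lost without R132C collagen replicate 2 (adjusted p = 0.158) and without R132C uncoated replicate 2 (adjusted p = 0.115), in a range of 0.000589 to 0.158 over its limma alternatives.

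**Figure D3:**
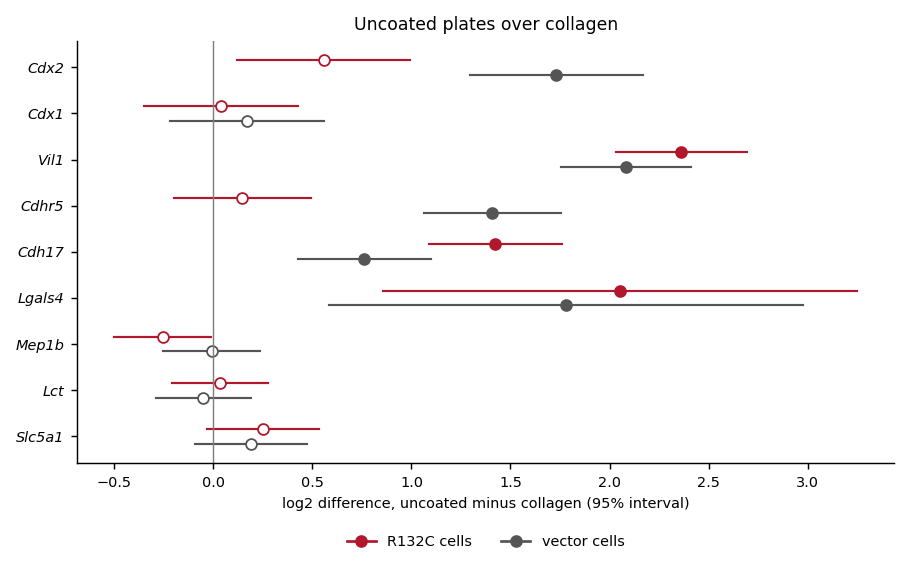
Log2 difference of uncoated plates minus collagen (x axis) with its 95% interval for the 9 genes (y axis), in R132C cells (red, upper of each pair) and vector cells (grey, lower). Filled points passed adjusted p 0.05 over all genes. Vil1, Cdh17 and Lgals4 were called in both kinds of cell, Cdx2 (0.56 in R132C cells and 1.73 in vector cells) and Cdhr5 (0.15 and 1.41) in vector cells alone.

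Whether R132C cells responded differently was tested as the difference of the plate effects. It passed for Cdhr5 alone of the 9 genes, at log2 -1.26 (SE 0.23, adjusted p = 0.0391, limma), where 0.25% of all genes passed with a negative difference and none with a positive one. Over 22 alternatives its adjusted p ran from 0.00694 to 0.237 by limma and passed in 7. It was lost on leaving out any 1 array other than R172K replicate 2, vector uncoated replicate 2 or R132C uncoated replicate 2, with the highest value without R132C collagen replicate 1 (-1.20, adjusted p = 0.237). Cdx2 had a difference of similar size, -1.18 (SE 0.29, adjusted p = 0.185, limma), which passed in 4 of 22 alternatives, among them those without R172K replicate 1 (adjusted p = 0.0189) or replicate 2 (adjusted p = 0.0184), in a range of 0.0184 to 0.667. For Vil1 the difference was 0.28 with a 95% interval of -0.18 to 0.75, for Lgals4 0.27 with one of -1.42 to 1.97, and for Cdh17 0.66 with one of 0.18 to 1.14 (adjusted p = 0.515, limma). The second Cdx2 probe set gave -1.10 (SE 0.22, adjusted p = 0.0889 over all probe sets, limma). The sign of the estimate was thus negative for Cdx2 and Cdhr5 and positive for the other 3 detected genes.

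On uncoated plates R132C cells were also set against vector cells directly, a comparison that shares its arrays with those above. Cdx2 was 2.25-fold lower, at log2 10.15 ± 0.15 in R132C cells and 11.32 ± 0.0027 in vector cells (SD, n = 2 each), a log2 difference of -1.17 with an adjusted p = 0.00922 by limma. Cdhr5 was 2.07-fold lower, at 6.30 ± 0.21 in R132C cells and 7.35 ± 0.32 in vector cells (SD, n = 2 each), a log2 difference of -1.05 with an adjusted p = 0.00405 by limma. These 2 of the 9 fell, where 1.49% of all genes fell, 0.896% rose and 2.39% passed in either direction. None of the 9 rose. Vil1 differed by -0.62 with a 95% interval of -0.95 to -0.29 and missed the threshold (adjusted p = 0.0539, limma), as did Lgals4 at -0.71 (-1.91 to 0.49) and Cdh17 at -0.086 (-0.42 to 0.25). Both calls were lost without vector uncoated replicate 1 (adjusted p = 0.0913 for Cdx2 and 0.0600 for Cdhr5) and without R132C uncoated replicate 1 (adjusted p = 0.130 and 0.0795), and that of Cdhr5 also with only the arrays compared in the limma fit (adjusted p = 0.0577). Over the 22 alternatives the adjusted p ran from 0.000684 to 0.130 for Cdx2 and from 0.00196 to 0.0795 for Cdhr5. That of Vil1 ran from 0.0289 to 0.529 and passed in 4, without vector collagen replicate 1 (0.0422) or 2 (0.0424) or R132C uncoated replicate 2 (0.0289) among them.

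On collagen, the IDH2 mutant was set against wild-type IDH2. Vil1 was 2.26-fold lower, at log2 7.22 ± 0.13 in R172K cells and 8.40 ± 0.12 in wild-type IDH2 cells (SD, n = 2 each, adjusted p = 0.00303, limma). Cdh17 was 2.27-fold lower, at 10.21 ± 0.17 in R172K cells and 11.40 ± 0.14 in wild-type IDH2 cells (SD, n = 2 each, adjusted p = 0.00317, limma). These 2 of the 9 fell, where 1.14% of all genes fell, 0.597% rose and 1.73% passed in either direction. None of the 9 rose. Lgals4 differed by -1.65 with a 95% interval of -2.85 to -0.45 and missed the threshold (adjusted p = 0.154, limma). Cdx2 differed by -0.023 with an interval of -0.46 to 0.41, and Cdhr5 by 0.012 with one of -0.33 to 0.36. The second Cdx2 probe set, with closer R172K arrays, gave -0.27 (SE 0.15, adjusted p = 0.423 over all probe sets, limma).

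R172K replicate 1 was the array with the lowest median intensity. Without it the differences were -1.27 for Vil1 and -1.30 for Cdh17, each with an adjusted p = 0.0158 by limma, and without replicate 2 they were -1.09 and -1.06 (adjusted p = 0.00652 and 0.00720, limma). The Vil1 call was lost without wild-type IDH2 replicate 2 (adjusted p = 0.0556, in a range of 0.00140 to 0.0556 over its alternatives). Without R172K replicate 2, Cdx1 and Lct also passed, at 0.54 and -0.36, differences between levels near background. Lgals4 differed by -2.41 without replicate 1 and by -0.89 without replicate 2, above the size for Vil1 and Cdh17 in the first case and below it in the second. Cdx2 changed sign with the replicate left out, to -0.43 without replicate 1 and 0.38 without replicate 2, neither past the threshold.

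Against vector cells on collagen the R172K estimates for the same genes were larger. Vil1 differed by -1.54 (SE 0.15, adjusted p = 0.000715, limma) and Cdh17 by -1.48 (SE 0.16, adjusted p = 0.000780, limma), and these 2 of 9 fell where 3.12% of all genes fell, 1.15% rose and 4.27% passed in either direction. The comparison shares its vector arrays with those of R132C, wild-type IDH1 and wild-type IDH2 against vector. Lgals4 differed by -2.00 and missed the threshold (adjusted p = 0.0615, limma), with -2.76 without R172K replicate 1 and -1.23 without replicate 2. Wild-type IDH2 itself had no call among the 9 genes or among all genes (0%) against vector. Of the 9, Vil1 alone had an unadjusted p under 0.05, with an estimate of -0.36 (-0.69 to -0.035), and 116 of 12393 genes had one.

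R132C on collagen gave estimates of the same sign for the same 3 genes and no call. Against wild-type IDH1, Vil1 differed by -0.57 (95% interval -0.90 to -0.24, adjusted p = 0.284), Cdh17 by -0.52 (-0.86 to -0.18, adjusted p = 0.355) and Lgals4 by -0.71 (-1.91 to 0.48, adjusted p = 0.845), all by limma. None of the 9 passed and 0.0484% of all genes did. Vil1 and Cdh17 were the 2 with an unadjusted p under 0.05, which 932 of 12393 genes had. Against vector cells the values were -0.90 for Vil1 (adjusted p = 0.111), -0.75 for Cdh17 (adjusted p = 0.168) and -0.98 for Lgals4 (adjusted p = 0.780) by limma. Again there was no call among the 9 or among all genes (0%). In that comparison 2 of the 9 had an unadjusted p under 0.05, and so had 936 of 12393 genes. Leaving out vector collagen replicate 1 brought Vil1 past the threshold there (adjusted p = 0.0492, in a range of 0.0427 to 0.817). Wild-type IDH1 against vector had no call among the 9 or all genes (0%). There 1 of the 9, Vil1, had an unadjusted p under 0.05, and so had 128 of 12393 genes. The difference between the R172K and R132C effects was not tested.

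**Figure D4:**
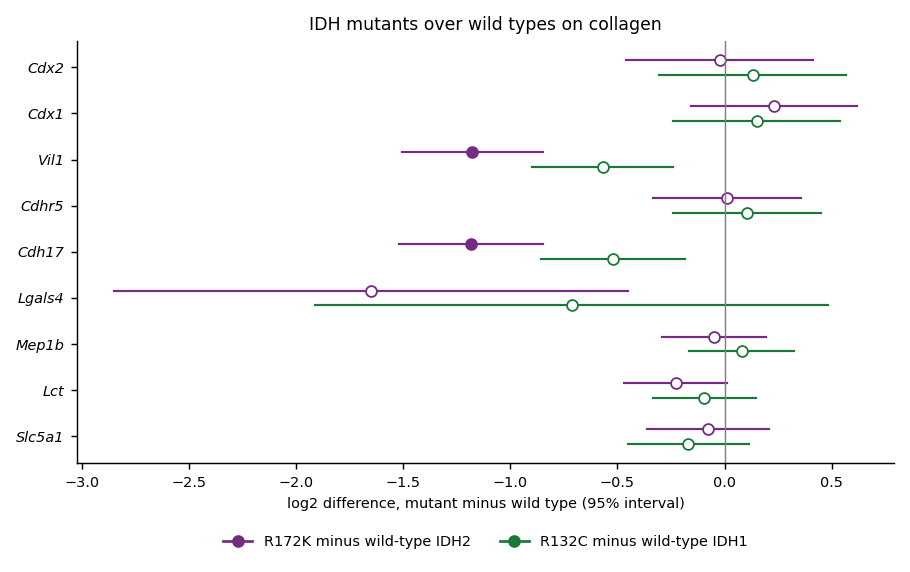
Log2 difference of mutant minus wild type on collagen (x axis) with its 95% interval for the 9 genes (y axis), for R172K against wild-type IDH2 (purple, upper of each pair) and R132C against wild-type IDH1 (green, lower). Filled points passed adjusted p 0.05 over all genes: Vil1 (-1.18) and Cdh17 (-1.18) with R172K. The estimates for Cdx2 lie at -0.023 with R172K and 0.13 with R132C.

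Correlation of the 7 group means set the 5 detected genes in 2 sets. Those of Vil1, Cdh17 and Lgals4 correlated with one another at r = 0.960 to 0.986, and those of Cdx2 and Cdhr5 with each other at r = 0.980. Between the sets the values were lower, from r = 0.664 for Cdhr5 and Cdh17 to 0.872 for Cdx2 and Vil1. Over the 5 collagen groups alone, Vil1, Cdh17 and Lgals4 correlated at r = 0.994 to 1.000, and Cdx2 with each of them at 0.356 to 0.372. Cdx2 and Cdhr5 correlated at 0.594 there, so their likeness is lower without the uncoated groups. These describe few points that share the split by plate.

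Among 1477 other genes whose group means spanned at least log2 1, those nearest in profile over the 7 group means were the following. For Cdx2 they were the gluconeogenic enzyme Fbp2 (r = 0.997), the oxidase subunit Cybb (r = 0.997) and the terminal complement component C9 (r = 0.995). For Cdhr5 they were the glucuronosyltransferase Ugt2b5 (r = 0.983), the mucosal scavenger protein Dmbt1 (r = 0.983) and the mitochondrial creatine kinase Ckmt1 (r = 0.983). For Vil1 they were the fatty acid enzyme Ech1 (r = 0.9996), Bsdc1 (r = 0.9989) and the semaphorin Sema4a (r = 0.9986). For Cdh17 they were Anxa13, an annexin known from intestine and kidney (r = 0.996), Slfn2 (r = 0.993) and Hhex, a homeobox factor of early liver and bile duct (r = 0.992). For Lgals4 they were Golt1a (r = 0.999), Tmem176b (r = 0.999) and Slfn2 (r = 0.998). Collagen means of Cybb, C9, Ugt2b5, Dmbt1 and Ckmt1 lay under the lower quartile.

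Some other genes on a list of intestinal transcription factors passed the test. Hnf4a on that list is also among the liver epithelium markers, and the liver shares GATA factors with the gut. The counts below are therefore not of intestinal factors alone. Of 19 measured besides Cdx1 and Cdx2, Cdx4 among them, 8 rose and none fell in vector cells on uncoated plates, where 15.1% of all genes rose, with a median difference of log2 0.34 against -0.020 over all genes. These included Sox9, a factor of crypt and bile duct cells (2.02, SE 0.25), the xenobiotic receptor Nr1i2 (1.28, SE 0.15), the epithelial factor Elf3 (1.04, SE 0.12), Foxa3 (0.96, SE 0.28), Klf5, a factor of proliferating crypt cells (0.78, SE 0.095), and Vdr (0.75, SE 0.22). In R132C cells 3 of the 19 rose, a share near the 13.6% of all genes that rose: Sox9 (1.98), Klf4 (0.73) and Tcf7l2 (0.45). R132C cells against vector cells on uncoated plates had 3 falls, Nr1i2 (-1.07), Elf3 (-0.71) and Klf5 (-0.53), and 1 rise, Klf4 (0.68), where 1.49% of all genes fell and 0.896% rose. Nr1i2 lay under the lower quartile in every group mean except that of vector cells on uncoated plates, so its differences are not exact. Collagen means of Elf3, log2 5.56 to 5.81, lay within the range of the muscle gene Ckm (5.36 to 5.83), so its differences are not exact either. In vector cells Vdr lost its call without vector collagen replicate 1 or vector uncoated replicate 2, and Foxa3 without replicate 1 of either. As the mean of its probe sets Klf5 passed in neither comparison. Between R132C and vector cells Klf5 and Elf3 lost theirs without vector uncoated replicate 1 or R132C uncoated replicate 1, and Klf4 in 11 of 22 alternatives, those without either R132C collagen or R132C uncoated array or without vector uncoated replicate 2 among them. With R172K, Hnf4a (-0.66 against wild-type IDH2, SE 0.11) and Gata5 (-0.89, SE 0.14) fell, where 1.14% of all genes fell. Both calls were lost without either wild-type IDH2 array and with only the arrays compared in the fit. That of Hnf4a was also lost without R172K replicate 1, and that of Gata5 as the mean of its probe sets.

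Genes on a list of brush border structure that passed the test for the plate mostly rose. Epcam and Cdh1 on that list are also among the liver epithelium markers. The counts below are therefore not of brush border genes alone. Of 19 measured besides Vil1, Cdhr5, Cdh17 and Lgals4, 7 rose and 1 fell in vector cells on uncoated plates, with a median of log2 0.24. Of all genes 15.1% rose and 14.2% fell there. Eps8l3, of a family of actin-capping proteins, rose by 2.28 (SE 0.31), the membrane mucin Muc13 by 2.26 (SE 0.13), the adhesion molecule Epcam by 1.83 (SE 0.21), the tip-link motor Myo7b by 1.50 (SE 0.15) and the microvillar motor Myo1d by 0.84 (SE 0.13), while Eps8 changed by -0.62 (SE 0.12). In R132C cells, where 13.6% of all genes rose and 12.3% fell, 6 rose and 1 fell. Among them were Epcam (1.08), Myo7b (0.99), Cdh1 (0.73), Eps8l2 (0.65), Myo1d (0.62) and Eps8 (-0.44). On uncoated plates 4 were lower in R132C than in vector cells and none higher: Muc13 (-1.87), Eps8l3 (-1.59), Epcam (-1.49) and Myo7b (-0.80). In that comparison 1.49% of all genes fell and 0.896% rose. Eps8l3 lay under the lower quartile in its collagen means, so its rise is not exact. The calls of Eps8l3 and Myo7b were lost without vector uncoated replicate 1 or R132C uncoated replicate 1, and that of Myo7b also without vector uncoated replicate 2. In R132C cells the call of Eps8 was lost without collagen replicate 1 or uncoated replicate 2, and that of Eps8l2 without collagen replicate 2 or either uncoated array. The difference between plate effects passed for Muc13 (-1.92, SE 0.19, adjusted p = 0.000416, limma) and held for it in all alternatives run. Of all genes 0.25% passed there, each with a negative difference. Collagen means of Muc13, log2 5.27 to 5.59, lay within or below the range of the muscle gene Ckm (5.36 to 5.83). Its differences are thus not exact. With R172K against wild-type IDH2, Krt20, a keratin of mature enterocytes (-0.98, SE 0.11), and Epcam (-0.94, SE 0.21) fell, where 1.14% of all genes fell. Epcam kept that call in 7 of 22 alternatives and lost it without R172K replicate 1, either wild-type IDH2 array or any array of the IDH1, R132C collagen and vector uncoated groups.

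**Figure D5:**
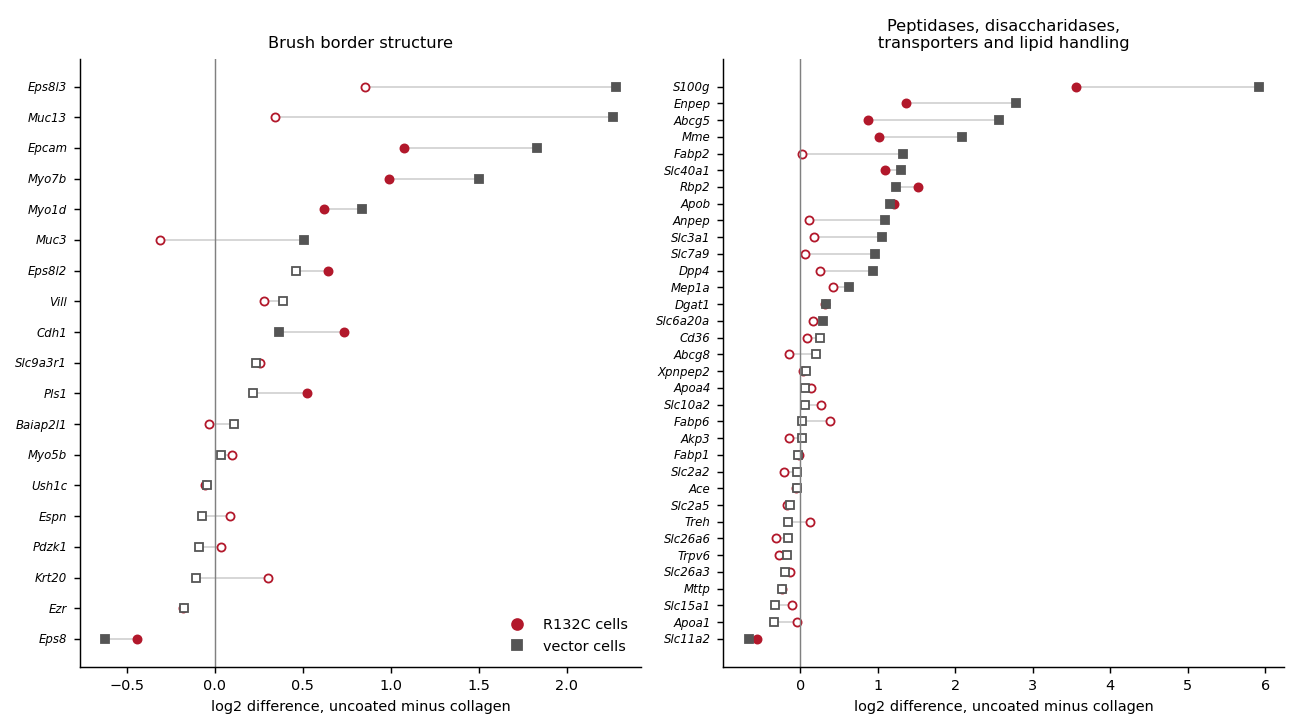
Log2 difference of uncoated plates minus collagen (x axis) for the measured genes of 3 related lists other than the 9 genes (y axis, ordered by the vector value), in R132C cells (red circles) and vector cells (grey squares). Filled symbols passed adjusted p 0.05 over all genes. Muc13 stands at 2.26 and S100g at 5.92 in vector cells, and Eps8 (-0.44 in R132C cells and -0.62 in vector cells) and Slc11a2 (-0.56 and -0.67) stand lowest.

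Several peptidases of the brush border rose although Mep1b and Lct did not pass. Of 9 hydrolases measured besides these, 5 rose and none fell in vector cells on uncoated plates: the aminopeptidase Enpep (2.79, SE 0.29), the endopeptidase Mme (2.09, SE 0.25), the aminopeptidase Anpep (1.09, SE 0.18), Dpp4 (0.93, SE 0.19) and Mep1a, the partner subunit of Mep1b (0.63, SE 0.17). Of all genes 15.1% rose and 14.2% fell there. Mep1a lost its call without vector collagen replicate 1 or vector uncoated replicate 2. In R132C cells 2 rose, Enpep (1.36) and Mme (1.02), where 13.6% of all genes rose. Against vector cells on uncoated plates 2 were lower, Mme (-1.14) and Anpep (-1.05), where 1.49% of all genes fell. Mme in R132C cells lost its call without collagen replicate 1 or uncoated replicate 2. Between R132C and vector cells Anpep lost its own without vector uncoated replicate 2 or R132C uncoated replicate 1, and Mme without these, either R132C collagen array or either wild-type IDH2 array. Mme, Anpep and Dpp4 were under the lower quartile in their collagen means, so their folds are not exact. Collagen means of Enpep ran from log2 4.57 to 5.72, close to background, so its folds are not exact either. Mep1a, by contrast, was above the quartile on all 14 arrays, from log2 5.88 to 7.04, while Mep1b was at or under it on all 14. The disaccharidase Treh was near background on every array too.

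Genes on a list of enterocyte transporters and lipid handling followed in part. Whether these genes are particular to enterocytes was not tested, so the counts are of the list only. Of 25 measured besides Slc5a1, 10 rose and 1 fell in vector cells on uncoated plates, with a median of log2 0.062. Of all genes 15.1% rose and 14.2% fell there. Among the 10 was Slc6a20a, near background on every array (log2 3.28 to 3.70), which kept its call in 9 of 21 alternatives. The calcium-binding protein S100g rose by 5.92 (SE 0.25), the sterol exporter subunit Abcg5 by 2.56 (SE 0.20), the fatty acid-binding protein Fabp2 by 1.33 (SE 0.21), the iron exporter Slc40a1 by 1.30 (SE 0.12), the retinol-binding protein Rbp2 by 1.23 (SE 0.17) and Apob by 1.15 (SE 0.29, lost without vector uncoated replicate 2), and the iron importer Slc11a2 changed by -0.67 (SE 0.11). In R132C cells 6 rose and 1 fell, with S100g at 3.56, Rbp2 at 1.52 and Abcg5 at 0.87, the last lost without R132C uncoated replicate 2. The shares of all genes there were 13.6% up and 12.3% down. On uncoated plates 6 were lower in R132C than in vector cells, where 1.49% of all genes fell. S100g (-2.15), Abcg5 (-1.80) and Fabp2 (-1.39) were among them. Rbp2 had no such call, with means of log2 7.74 in R132C cells and 7.52 in vector cells. The differences between plate effects passed for S100g (-2.36, SE 0.35) and Abcg5 (-1.69, SE 0.28), in 17 and 15 of 21 alternatives. Both were lost without either R132C collagen array, vector collagen replicate 2 or R132C uncoated replicate 1, and that of Abcg5 also without vector collagen replicate 1. Collagen means of S100g, Abcg5 and Fabp2 lay under the lower quartile, and so did Fabp1 in every group.

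Markers of other cell types moved in part with the plate. Of 9 measured genes of goblet, Paneth and enteroendocrine cells 2 rose in vector cells on uncoated plates, where 15.1% of all genes rose and 14.2% fell, the goblet cell peptides Spink4 (3.79, SE 0.16) and Tff3 (0.40, SE 0.13, in 15 of 21 alternatives). The Tff3 call was lost without either vector collagen array, vector uncoated replicate 1 or either wild-type IDH2 array. In R132C cells, where 13.6% of all genes rose and 12.3% fell, Spink4 alone rose (1.33, SE 0.16). Collagen means of Spink4 (log2 4.44 to 4.80) and Tff3 (4.60 to 4.84) lay close to the lower quartile, so their differences are not exact. Agr2, Chga, Chgb and Neurod1 were near background on all arrays. The summed intensity of the list was 224.9 to 243.9 in R132C cells and 516.7 to 529.2 in vector cells on uncoated plates, and 181.5 to 205.3 over the 5 collagen groups. Spink4 carried that gap: the sum of the other 8 genes was 163.4 to 164.6 in R132C cells and 171.9 to 190.0 in vector cells on uncoated plates, and 155.6 to 178.0 on collagen. For 8 stomach genes there was no call, and their sum was 534.1 to 543.0 in R132C cells and 525.4 to 559.1 in vector cells on uncoated plates, against 485.2 to 555.4 on collagen. Of the 8, 5 were above the lower quartile on all arrays, Tff1 (log2 7.93 to 8.23) and Muc5ac (5.77 to 6.51) highest. Sox2 alone was near background on every array. Of 6 kidney tubule genes Cubn fell in vector cells (-1.09) and in R132C cells (-1.13). The other 5 were not called, and 3 of the 6 were near background on every array. The sum of the 6, Cubn included, was 133.4 to 148.7 on uncoated plates, against 176.1 to 243.3 on collagen. Means of Cubn itself were log2 5.16 in vector and 5.32 in R132C cells on uncoated plates, against 6.22 to 6.93 on collagen, so the sum shows no fall of the list as a set. Of 4 measured blood cell genes Ptprc rose in vector cells (1.73, SE 0.28) and in R132C cells (1.19, SE 0.28), the second call being lost without R132C collagen replicate 1 or R132C uncoated replicate 1. Its collagen means lay under the lower quartile, so these values are not exact, and the sum of the 4 genes was 128.1 to 210.5 on uncoated plates, against 126.8 to 232.7 on collagen. Among the liver markers Afp fell in vector cells (-1.39, SE 0.21) and in R132C cells (-0.83, SE 0.21), the second call being lost without R132C collagen replicate 2 or R132C uncoated replicate 2. In the same list Epcam (1.83 in vector cells and 1.08 in R132C cells) and Cdh1 (0.37 and 0.73) rose. Thus 2 liver markers rose and 1 fell with the plate in either kind of cell. In vector cells the Cdh1 call held in 18 of 22 alternatives. The part of these cell types in the results was not tested.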

How the data were processed

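Transcripts of 14 cultures were measured on Affymetrix mouse expression arrays. The deposited intensity values came from RMA, which the submitters' processing notes name without a version. They are linear, so log2 was taken here. The platform table gave 1 gene symbol to 20380 of 22690 probe sets, several to 691 and none to 1555, and 64 more were controls. Symbols were updated through gene IDs. The 7 group means were fitted with limma 3.58.1 in R 4.3.3 (eBayes with intensity trend, 7 residual degrees of freedom), and 10 comparisons were adjusted over 12393 genes by Benjamini-Hochberg at 0.05. The fit was tested on simulated data. The series text counts 2 cultures per condition.

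The members, the related gene lists and the tests were chosen with earlier results of these data known. All 9 members are named, and from each related list up to 6 genes past the threshold with the largest change (or the 2 highest where fewer than 2 pass), plus the 3 nearest profiles per detected member, with a span of at least 1, leaving out genes with predicted names. The alternatives changed the probe set rule, filter, scaling, trend and arrays fitted, left out each array in turn, or added the replicate number as a block. Cdx4, Treh, Fabp1, Mep1a, Rbp2 and Slc6a20a outside that rule, and the marker levels, were chosen after their values were seen. The number of arrays limits the precision.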

Additional observations from a re-analysis of the deposited data

Results flagged for a closer look

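Cdhr5 was the gene of the 9 whose plate effect differed between R132C cells and vector cells by a test of the difference itself, at -1.26 on the log2 scale (SE 0.23, adjusted p = 0.0391, limma). In R132C cells both plates overlapped, at 6.15 and 6.45 on uncoated plates and 6.22 and 6.09 on collagen, and in vector cells they did not, at 7.58 and 7.12 on uncoated plates and 5.82 and 6.05 on collagen. The direction was the same in 22 of 22 alternatives, and the threshold was passed in 7. Several alternatives leave the estimate itself unchanged and all reuse most of the arrays, so the kept direction is not independent support. Collagen levels of Cdhr5 lay close to background, so the size is not exact. With 2 arrays per group no sample could be tested for standing apart from its group.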

How the results depend on the processing

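The 15 calls among the 9 genes kept their direction under each of the 22 alternatives run, and they also kept their side of the threshold in 304 repeats and lost it in 26. As the alternatives reuse most of the arrays, a kept direction is not independent support. The count of 1 member for the difference between plate effects came to 0 with every probe set tested by itself, with genes above the 30th percentile only and with cyclic loess, to 2 with probe sets averaged per gene, and to 0 to 2 with 1 array left out. For R132C against vector on uncoated plates the count of 2 came to 1 with only the arrays compared and to 0 to 3 with 1 array left out. The counts of 2 for R172K came to 1 to 4 against wild-type IDH2 and 2 to 4 against vector with 1 array left out, and that of 0 for R132C against vector on collagen to 0 to 1. The counts for the plate in vector and R132C cells, 5 and 3, came to 4 to 5 and 2 to 4. The cause was not tested beyond what the settings themselves change.

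Counts over all genes moved more. With 1 array left out they ran from 2293 to 4251 around 3628 for the plate in vector cells, from 1660 to 3916 around 3215 in R132C cells, from 71 to 386 around 296 for R132C against vector on uncoated plates, from 19 to 79 around 31 for the difference between plate effects, from 14 to 2332 around 215 for R172K against wild-type IDH2, from 70 to 2596 around 529 for R172K against vector, from 0 to 9 around 6 for R132C against wild-type IDH1 and from 0 to 14 around 0 for R132C against vector on collagen. Under the other settings the same counts ran from 3181 to 3978, 3119 to 3857, 140 to 505, 11 to 54, 41 to 480, 45 to 904, 0 to 49 and 0 to 33.

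The replicate number links samples in the labels by number only. Across genes the replicate gaps correlated at 0.111 to 0.487 between the 5 collagen groups, and from -0.041 over all pairs of the 7 groups. With the replicate block the counts among the 9 genes were 5 and 4 for the plate in vector and R132C cells, 3 for R132C against vector on uncoated plates, 1 for the difference, 3 for R172K against either control and 1 for R132C against vector on collagen. The calls gained were Lgals4 for R172K (adjusted p = 0.0189 against wild-type IDH2 and 0.00464 against vector), Vil1 for R132C against vector (0.0370 on uncoated plates and 0.0427 on collagen) and Cdx2 for the plate in R132C cells (0.0258), all by limma. Calls over all genes came to 3978, 3603, 505, 54, 480, 904 and 33 in these comparisons. Levels near the lower quartile cannot show small differences, and another background correction was not run, as the files hold summarised values.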
